A study of Mus musculus with 7 samples.

Results

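The comparison described here set the open chromatin of MEFs before induction (day 0) beside that of the same cell system after 1 day of doxycycline (day 1), peak by peak. The members were the ATAC-seq peaks of these libraries, 106950 of the 293147 peaks called over all 7 libraries. A day 0 peak was called lost when no day 1 peak overlapped it by at least 1 bp, a day 1 peak was called gained when no day 0 peak overlapped it, and the others were called kept. Of 61241 day 0 peaks, 33917 were lost (55.4%) and 27324 were kept, and of 45709 day 1 peaks, 17825 were gained (39.0%) and 27884 were kept.

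Both libraries came from MEFs of a cross between B6;129S4 mice with the (tetO-Pou5f1,-Klf4,-Sox2,-Myc) allele of *Col1a1*, Hoch/J, and B6.Cg mice with the (rtTA*M2) allele of Gt(ROSA)26Sor, Jae/J. The untreated cells thus also carried the uninduced OKSM cassette, placed at *Col1a1*, and rtTA, the doxycycline-dependent activator that drives it. Day 0 cells received no treatment, and day 1 cells received doxycycline at 2 µg/mL for 1 day. The culture protocol gives the reprogramming medium more FBS than the MEF medium. No library of doxycycline-treated MEFs without the cassette was used here, so induction of the factors, doxycycline itself, the medium and the added day in culture cannot be told apart. Each time-point has 1 library, so no p-value was computed between days, and the exact (Clopper-Pearson) 95% intervals given below cover counting error only. The later libraries, from days 2, 3, 6 and 9 of doxycycline and from untreated ESCs, were used to follow the lost and gained peaks.

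ATAC-seq marks open chromatin, DNA that the Tn5 transposase can reach because nucleosomes are absent or displaced. In fibroblasts, enhancers far from promoters are commonly held open by AP-1, the dimers of FOS and JUN family proteins, together with TEAD, RUNX and CEBP factors. Oct4, Sox2 and Klf4 are known as pioneer factors, able to bind their motifs on nucleosomal DNA, whereas c-Myc binds mainly chromatin that is already open, and CTCF marks insulators and loop anchors that are shared by many cell types.

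The lost peaks are illustrated by 3 sites near genes of the mesenchymal lists that had no peak on any later day or in ESCs. They were chosen, among 299 such peaks, for the most AP-1 motifs (TGANTCA, either strand) in their central 200 bp, with wider peaks first where numbers tied, and each held 2. The first lies in an intron of *Runx1*, which encodes a RUNX family transcription factor, in a peak 621 bp wide at chr16:92620606-92621226. The second is intergenic, 154378 bp from the nearest start of *Col1a2*, a type I collagen gene, at chr6:4349826-4350436 (611 bp). The third is intergenic, 337243 bp from *Zeb2*, which encodes a repressor of epithelial genes, at chr2:45454638-45455222 (585 bp). The central bases of each peak are given on the plus strand of mm10, with AP-1 motifs in capitals.
Runx1 lost peak, chr16:92620816-92621015: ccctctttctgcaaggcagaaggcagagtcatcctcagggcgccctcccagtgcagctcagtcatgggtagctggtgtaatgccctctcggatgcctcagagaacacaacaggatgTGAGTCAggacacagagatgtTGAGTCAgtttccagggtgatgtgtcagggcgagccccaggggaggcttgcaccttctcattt
Col1a2 lost peak, chr6:4350031-4350230: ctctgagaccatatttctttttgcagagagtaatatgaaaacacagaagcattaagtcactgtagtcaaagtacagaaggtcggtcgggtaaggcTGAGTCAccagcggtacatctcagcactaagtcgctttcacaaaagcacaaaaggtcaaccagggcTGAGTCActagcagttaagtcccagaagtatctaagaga
Zeb2 lost peak, chr2:45454830-45455029: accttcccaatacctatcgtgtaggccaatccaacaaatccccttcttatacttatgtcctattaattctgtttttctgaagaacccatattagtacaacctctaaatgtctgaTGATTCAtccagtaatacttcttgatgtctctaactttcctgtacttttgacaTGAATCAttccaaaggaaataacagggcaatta
The spacing of the motifs differed between the sites, and the *Runx1* and *Col1a2* peaks held the TGAGTCA form in both positions.

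The gained peaks are illustrated by 3 sites that were open on each later day and in ESCs and lay nearest to a pluripotency or epithelial gene, of 8 such peaks. They were chosen for the most OCT (ATGCAAAT), SOX (ACAANG) and KLF (GGGNGTG) motifs in the central 200 bp. The *Tfcp2l1* site, 61831 bp from the start of a gene for a naive pluripotency transcription factor, is a peak of 304 bp at chr1:118689777-118690080 with 3 SOX motifs and 1 KLF motif. The *Klf5* site, 149920 bp from a gene for a KLF family factor of ESCs, is a peak of 750 bp at chr14:99449074-99449823 with 1 SOX motif and 1 KLF motif that overlap. Its bases also hold an AP-1 motif (TGAGTCA) that overlaps the KLF motif and is not marked below. The *Cldn3* site covers the TSS of a tight junction claudin gene in a peak of 736 bp at chr5:134985714-134986449 with 2 overlapping KLF motifs. The fourth sequence is the whole gained peak, 230 bp wide, that lies in the upstream element of *Lefty1* which the study cloned. It ends 846 bp before the start of *Lefty1*, a Nodal antagonist gene, holds 1 OCT and 1 SOX motif, and had an overlapping peak on days 2, 3, 6 and 9 but not in ESCs. Capitals mark OCT, SOX and KLF motifs on either strand, and the plus strand of mm10 is shown.
Tfcp2l1 gained peak, chr1:118689829-118690028: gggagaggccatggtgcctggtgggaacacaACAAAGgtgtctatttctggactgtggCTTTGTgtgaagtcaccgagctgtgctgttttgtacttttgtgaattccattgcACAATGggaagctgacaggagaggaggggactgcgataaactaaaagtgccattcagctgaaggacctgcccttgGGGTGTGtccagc
Klf5 gained peak, chr14:99449349-99449548: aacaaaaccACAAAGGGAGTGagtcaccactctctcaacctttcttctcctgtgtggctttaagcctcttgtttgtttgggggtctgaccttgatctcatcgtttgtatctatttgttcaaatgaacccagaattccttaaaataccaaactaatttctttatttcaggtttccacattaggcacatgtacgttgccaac
Cldn3 gained peak, chr5:134985982-134986181: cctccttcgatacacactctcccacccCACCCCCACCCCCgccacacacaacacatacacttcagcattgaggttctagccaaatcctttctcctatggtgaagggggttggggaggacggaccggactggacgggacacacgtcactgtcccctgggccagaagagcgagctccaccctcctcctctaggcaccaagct
Lefty1 gained peak, chr1:180933947-180934176: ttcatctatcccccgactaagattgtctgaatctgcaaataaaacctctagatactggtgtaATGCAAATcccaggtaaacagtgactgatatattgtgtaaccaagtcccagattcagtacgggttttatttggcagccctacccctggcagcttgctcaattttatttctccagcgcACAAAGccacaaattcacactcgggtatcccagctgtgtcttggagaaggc
None of the 3 peaks of the first set held an OCT motif in the window shown, and the *Lefty1* peak held no KLF motif.

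Most lost peaks lay far from any day 1 peak. Day 0 peaks covered 26.2 Mb and day 1 peaks 19.35 Mb, and 11.6 Mb lay in both. The nearest day 1 peak was a median of 12124 bp away from a lost peak and lay beyond 10 kb for 55.8% of them, while 8.31% had a day 1 peak within 500 bp. For gained peaks the nearest day 0 peak was a median of 8783 bp away, and 10.9% had one within 500 bp. Few peaks sat within 50 bp of the boundary between the classes, but many kept peaks overlapped only in part. When 50% of both peaks had to overlap, 69.4% of the day 0 peaks were lost and 59% of the day 1 peaks gained. The best overlap of 389 kept day 0 peaks was at most 50 bp, and 407 lost peaks had a day 1 peak within 50 bp.

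The narrow peaks made up most of what was lost. Lost peaks had a median width of 250 bp (quartiles 204 and 441 bp), kept day 0 peaks 580 bp (355 and 694 bp) and gained peaks 267 bp (204 and 449 bp). Of 5 width bins with equal numbers of day 0 peaks, the narrowest held peaks of 200 to 210 bp, of which 82.7% were lost, and the widest held peaks of at least 615 bp, of which 10.2% were lost. The width is the only measure in the files besides position, and both moved together, since 60.02% of the widest day 0 peaks and 8.56% of the narrowest lay within 1 kb of a TSS. Position went with loss within a width bin as well. Of the widest day 0 peaks, 1.46% of those near a TSS and 23.2% of those farther away were lost. The day 1 peaks had the same order, with 57.7% of the narrowest and 12.8% of the widest gained.

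**Figure D1:**
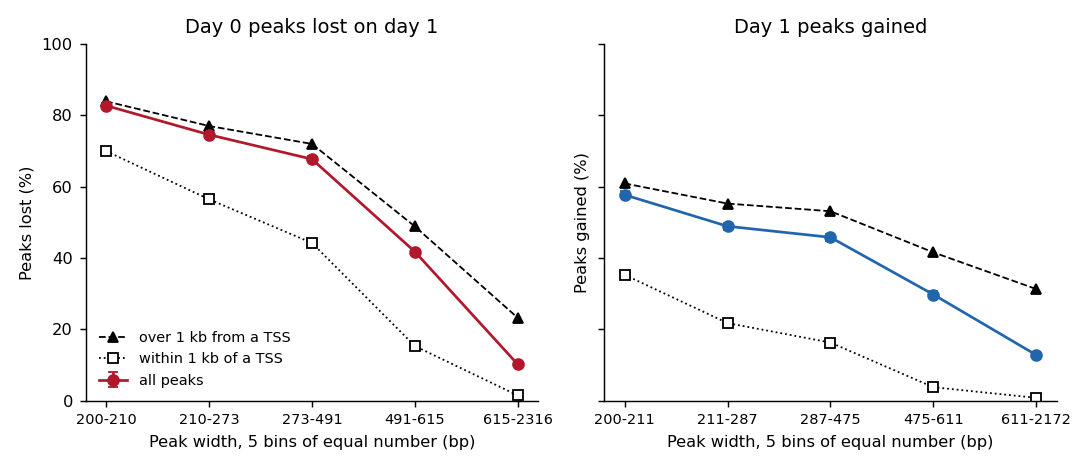
Share of day 0 peaks lost (left) and of day 1 peaks gained (right), in %, in 5 bins of peak width with equal numbers of peaks (bp). Coloured circles are all peaks with exact 95% intervals (smaller than the symbols), triangles are peaks over 1 kb from a TSS and squares are peaks within 1 kb of one. The share lost fell from 82.7% in the narrowest bin to 10.2% in the widest, and squares lie below triangles in each bin.

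Peaks at promoters were lost less often than distal ones. Of the day 0 peaks within 1 kb of the TSS of a protein-coding transcript, 20.2% were lost (19.5 to 20.9%), against 61.8% at 1 to 5 kb, 64.5% at 5 to 50 kb, 68.9% at 50 to 500 kb and 79.0% beyond 500 kb. The share of day 1 peaks that were gained followed the same order, with 9.38% within 1 kb, 47.6% at 1 to 5 kb and 64.6% beyond 500 kb. Accordingly, 41.9% of the kept day 0 peaks were TSS-proximal, against 8.53% of the lost and 6.89% of the gained peaks. Introns held 41.6% of the lost and 46.4% of the gained peaks, and intergenic sites held 46.6% and 43.2%. Seen from the genes, 11504 of 21842 protein-coding genes had a promoter peak on both days, 1244 on day 0 alone and 391 on day 1 alone.

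The sequence under the peaks followed this division. Kept day 0 peaks had a median GC content of 54.5% in their central 200 bp, and 38.6% of them held at least 10 CpG dinucleotides. Lost peaks had a median of 46.5% and gained peaks 45.0%, with 4.99% and 3.84% of them at 10 CpG or more. The motifs of general promoter factors were found mainly in kept peaks. The ETS motif (CCGGAAG) was in 6.55% of the kept day 0 peaks, 1.21% of the lost and 0.848% of the gained ones, and the motif of NRF1 (GCATGCGC), a regulator of mitochondrial genes, was in 1.74%, 0.327% and 0.326%.

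Among distal peaks, those over 1 kb from a TSS, gained peaks held OCT, SOX and KLF motifs more often than lost ones. The OCT octamer was in 704 of 16586 gained distal peaks (4.25%, 3.94 to 4.56%), 1.43% of the kept day 0 and 0.851% of the lost distal peaks (0.752 to 0.960%), beside 2.28% of the merged peaks of all libraries. The composite OCT-SOX motif, which Oct4 and Sox2 bind as a pair, was in 85 gained distal peaks (0.512%) and 29 of 31009 lost ones (0.0935%). SOX motifs were in 46.8% of the gained and 34.7% of the lost distal peaks, with 36.5% over the merged peaks. KLF motifs were in 22.1% of the gained distal peaks (21.5 to 22.7%), 18.6% of the kept day 0 and 12.1% of the lost ones (11.7 to 12.4%), with 19.25% over the merged peaks. Kept day 1 distal peaks, with 20.0%, lay close to the gained ones for KLF. At least 1 of the 3 motifs was in 60.5% of the gained and 43.5% of the lost distal peaks. The OCT, OCT-SOX, SOX and KLF shares were each higher in gained than in lost distal peaks. The motif of the remaining induced factor, c-Myc (CACGTG), went the other way. It was in 2.23% of the gained, 3.12% of the lost and 3.51% of the kept day 0 distal peaks, with 3.30% over the merged peaks. The intervals cover counting error among peaks of 1 library per day and do not test a difference between days. Over all peaks, the share with an OCT or a KLF motif was higher in gained than in lost peaks under each of the 8 alternative settings that gave these shares as well.

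Among distal peaks, AP-1 motifs were more frequent in lost and kept peaks than in gained ones. They were in 21.1% of the lost, 29.4% of the kept day 0 and 13.4% of the gained distal peaks, beside 16.04% over the merged peaks. The difference between lost and kept peaks went with their width. Among distal peaks at least 300 bp wide, 36.9% of the lost (36.0 to 37.8%) and 37.8% of the kept day 0 peaks (36.9 to 38.7%) had an AP-1 motif, and 18.03% of the gained ones did. With the TSS-proximal peaks included, 20.0% of the lost and 18.7% of the kept day 0 peaks had one; the order of these classes was thus the reverse of that among distal peaks. CTCF motifs were in 4.89% of the kept day 0, 2.15% of the lost and 1.55% of the gained distal peaks. TEAD (GGAATG), RUNX (TGTGGTT) and CEBP (TTGCNNAA) motifs differed less, with TEAD in 16.5% of the lost, 17.7% of the kept day 0 and 14.3% of the gained distal peaks, RUNX in 6.61%, 6.60% and 6.21%, and CEBP in 10.4%, 9.88% and 11.0%.

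**Figure D2:**
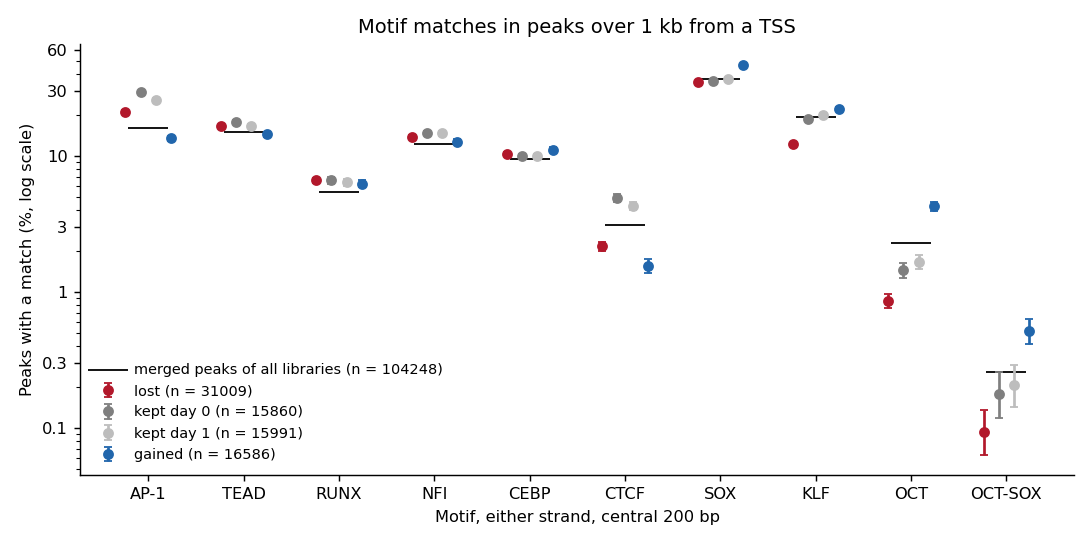
Share of distal peaks (%, log scale) with each motif in the central 200 bp, for lost, kept and gained peaks with exact 95% intervals, and for the merged peaks of all 7 libraries at any distance from a TSS (black bars). Gained peaks lie highest for SOX, KLF, OCT and OCT-SOX and lowest for AP-1 (13.4%) and CTCF (1.55%).

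Counted the other way, the shares of distal peaks lost and gained differed with the number of motifs. Of day 1 distal peaks without an OCT motif 50.25% were gained, of those with 1 motif 72.3% (69.3 to 75.1%), and of the 38 with more than 1, 81.6% (65.7 to 92.3%). With SOX motifs the share gained went from 46.5% without a motif to 55.2% with 1 and 62.7% with more. AP-1 motifs went with the opposite, with 54.7% of the day 1 distal peaks gained without a motif, 37.7% with 1 and 17.0% with more. Of day 0 distal peaks, 68.6% were lost without an AP-1 motif, 60.01% with 1 and 49.8% with more. The day 0 peaks with more than 1 AP-1 motif had a median width of 550 bp, against 255 bp for those without, so motif number and width moved together and their parts were not separated. KLF motifs also went with being kept on day 0, with 67.9% lost without a motif and 51.1% with more than 1, at median widths of 285 and 345 bp. The share of day 1 distal peaks gained differed little with KLF motifs. It was 50.25% without a motif, 53.2% with 1 and 54.05% with more.

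Along the peaks, the OCT, SOX and KLF motifs of the gained class as a whole were denser over the centre than in the flanks, but the place depended on peak width. In gained distal peaks at least 500 bp wide the density of OCT motifs was 8.68 per 1000 peaks per 20 bp within 50 bp of the centre and 1.19 at 400 to 500 bp. In lost distal peaks of the same width it was 0.773 at the centre and 1.23 in the flanks, so no excess was seen. AP-1 motifs had a density of 68.9 at the centre of lost, 65.5 at the centre of kept day 0 and 24.0 at the centre of gained distal peaks of this width. The narrow peaks looked different. In gained distal peaks under 300 bp the density of OCT motifs was 2.56 within 50 bp of the centre and 3.65 at 100 to 200 bp, and that of KLF motifs was 20.3 and 27.2. In lost distal peaks under 300 bp the AP-1 density was 9.65 within 50 bp of the centre and 33.3 at 100 to 200 bp from it, at and beyond the edges of these peaks. A window of 400 bp, chosen after this was seen, gave AP-1 shares of 41.2% of the lost, 43.7% of the kept day 0 and 25.3% of the gained distal peaks, with the gained class still lowest.

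**Figure D3:**
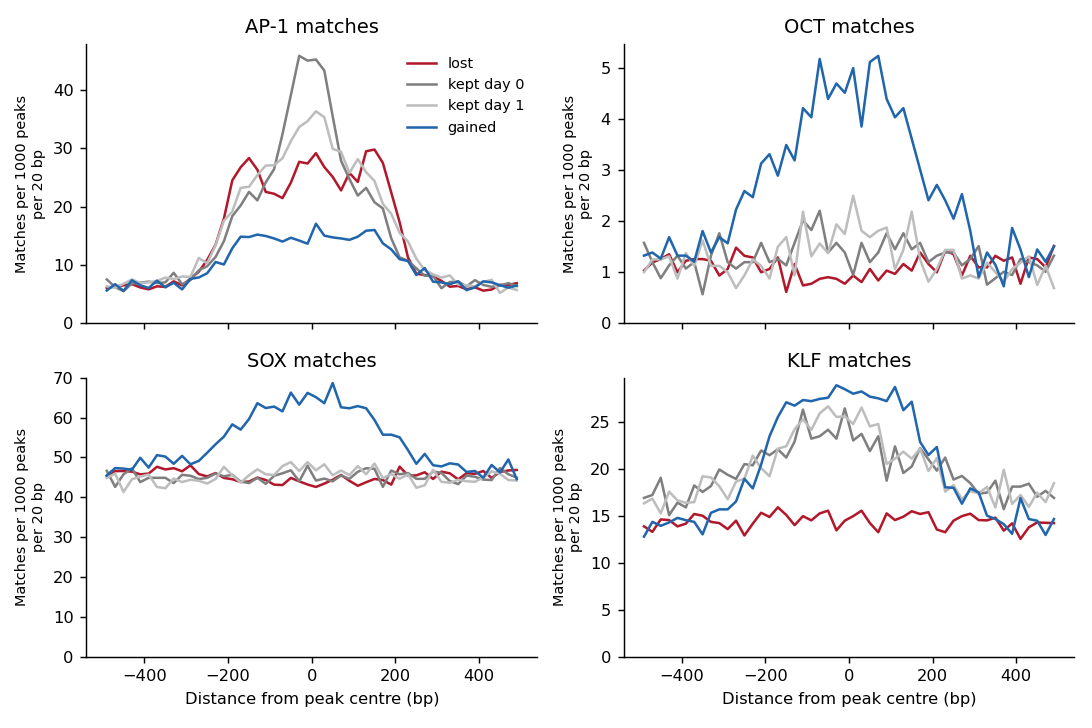
Density of AP-1, OCT, SOX and KLF motifs (matches per 1000 distal peaks per 20 bp) against the distance from the peak centre (bp), for lost, kept day 0, kept day 1 and gained peaks. OCT and SOX motifs rise over the centre of gained peaks and do not over lost ones, while AP-1 motifs rise in all classes and least in gained peaks.

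Kept sites also changed. Of 23564 pairs with 1 peak on each day, the day 1 peak was a median of 0.907 times as wide as the day 0 peak (quartiles 0.701 and 1.05). It was at most 1/1.5 as wide in 22.6% of the pairs and at least 1.5 times as wide in 7.78%. Among the 13634 distal pairs the day 1 peak was the wider one in 33.4%. It was wider in 44.7% of the 197 pairs with an OCT motif (37.6 to 51.9%), in 37.0% with a SOX and 36.4% with a KLF motif. It was wider in 25.9% of those with an AP-1 motif (24.6 to 27.3%) and 23.4% of those with a CTCF motif (20.2 to 26.8%). Pairs with OCT, SOX or KLF motifs were thus wider on day 1 more often, and pairs with AP-1 or CTCF motifs less often, than distal pairs as a whole. AP-1 motifs were in 10.06% of the kept day 0 distal peaks under 300 bp and 37.81% of those at least 300 bp wide. For CTCF these shares were 1.419% and 6.396%, for KLF 16.3% and 19.66%, for SOX 38.03% and 34.47% and for OCT 1.774% and 1.283%. AP-1 and CTCF motifs thus went with wide day 0 peaks, and the parts of motif and day 0 width were not separated.

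Most of the lost sites were not found again. Of the lost peaks, 73.5% (73.0 to 74.0%) had no peak in any of the 5 later libraries, and 3.61% had one in ESCs. Days 2, 3, 6 and 9 had a peak at 5.99%, 15.4%, 14.8% and 7.89% of the lost sites, respectively. Lost peaks near a TSS were found again more often, 36.0% of them on day 6 against 12.8% of the distal ones. Of the 127 lost peaks found again in all later libraries, 57.5% were TSS-proximal.

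Gained sites were found later more often than lost ones, but few of them were open in ESCs. The share of gained peaks with a later peak was 40.4%, 56.6%, 46.2% and 33.7% at days 2, 3, 6 and 9, respectively, and 9.67% (9.24 to 10.1%) in ESCs. Kept day 0 peaks were found on day 3 in 82.6% and in ESCs in 42.5%. No later library had a peak at 28.8% of the gained sites, 16.8% were open on days 2, 3, 6 and 9 but not in ESCs, and 777 (4.36%) were open throughout. Width went with persistence, since the gained peaks with no later peak had a median width of 214 bp and those open throughout 524 bp. The later libraries differed in their number of peaks, from 27074 in ESCs to 48087 on day 3, and the shares of gained peaks found later were in the order of those numbers.

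**Figure D4:**
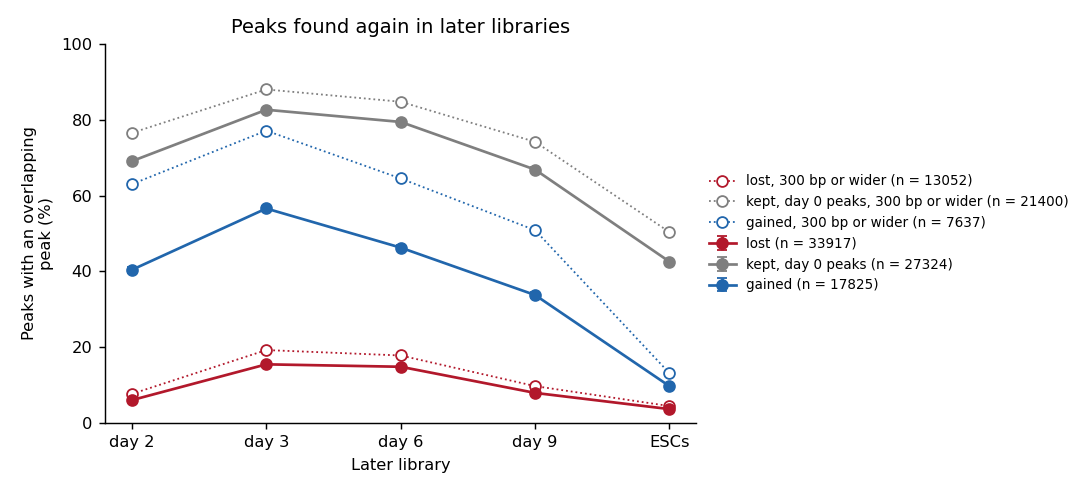
Share of lost, kept day 0 and gained peaks (%) with an overlapping peak in each later library. Filled circles are all peaks of the class with exact 95% intervals (smaller than the symbols), and open circles are those at least 300 bp wide. On day 3 the shares are 15.4% of lost, 56.6% of gained and 82.6% of kept day 0 peaks, and each class has its lowest share in ESCs.

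The OCT, SOX and KLF motifs went with the later life of gained sites, as did peak width. OCT motifs were in 2.92% (2.48 to 3.42%) of the gained peaks without a later peak, 6.30% of those open from day 2 to day 9 only and 7.62% (5.85 to 9.72%) of those open throughout. KLF motifs were in 18.2%, 29.2% and 29.5%, and SOX motifs in 42.9%, 49.8% and 55.2%, in the same order of classes. Gained peaks without a later peak had a median width of 214 bp, and those open throughout 524 bp. In gained distal peaks under 300 bp, OCT and KLF motifs were denser at 100 to 200 bp from the centre, outside the window searched. The parts of motif and width were thus not separated. Of the 85 gained distal peaks with an OCT-SOX motif, 72 (84.7%) had a peak on day 3 and 23 (27.1%, 17.99 to 37.8%) had one in ESCs, against 57% and 8.83% of all gained distal peaks. Their median width was 424 bp against 270 bp. AP-1 motifs were in 12.2%, 13.7% and 11.6% of these gained classes and did not follow that order. Among lost distal peaks, 48.35% of those with a CTCF motif (44.5 to 52.2%) had no peak in any later library, against 79.7% of those with an AP-1 motif (78.7 to 80.6%) and 76.3% of all.

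The day 0 library was checked against cell type markers by peaks within 1 kb of a TSS. Of 10 MEF markers, 9 were open on day 0 and 8 on day 1, the difference being *Col3a1*. Of 10 ESC markers 4 were open on day 0 and 3 on day 1, of 10 epithelial markers 0 and 1 (*Krt8*), of 10 endothelial markers 6 and 3, of 10 blood markers 5 and 3, of 10 neural and glial markers 3 and 2, and of 10 skeletal muscle markers 1 and 1. The endothelial genes *Pecam1*, *Cdh5* and *Kdr* and the blood genes *Spi1* and *Tyrobp* had a promoter peak on day 0 alone. For comparison, 58.4% of all protein-coding genes had a promoter peak on day 0 and 54.5% on day 1. Thus the MEF markers were mostly open as the label states, and endothelial and blood markers were open on day 0 at about the share of all genes. Fewer endothelial, blood, neural, ESC and MEF markers were open on day 1, as were fewer promoters of all genes. The MEF, ESC and neural sets each differed by 1 marker. The part of other cell types in the loss of peaks was not tested, and fewer cells of a type cannot be told apart from less accessibility per cell.

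Nearly all genes of the fibroblast list had lost peaks. Each peak was assigned to the protein-coding gene with the nearest TSS. Of 30 fibroblast and mesenchymal genes, 29 had a lost peak and 25 a gained peak, against 50.0% and 36.6% of all protein-coding genes. All 30 had a day 0 peak, however, while 15825 of all 21842 genes did, with 61002 peaks. Such counts of genes thus also depend on the number of peaks per gene. The list had 336 peaks on day 0 and 213 on day 1, and 25 genes had fewer peaks on day 1 while 1, *Fbln2*, had more. *Col1a2* went from 17 peaks to 6 and lost 12, *Col1a1* went from 12 to 6 and lost 9, and *Postn*, a matrix protein gene, went from 11 to 5 and lost 9. *Tagln*, an actin-binding protein gene of contractile cells, had 2 peaks on day 0, both lost, and none on day 1. *Vim*, the intermediate filament gene of mesenchymal cells, kept both of its peaks. The promoter peaks of *Col3a1*, *Col6a3* and *Tagln* were lost and no promoter in the list was newly open. In all, 62.2% of the list's day 0 peaks were lost, against 55.3% for all genes, with a median per gene of 58.6% against 50%, but among distal peaks the shares were 66.0% (60.4 to 71.3%) and 66.1%. The list's distal peaks thus had a share lost near that of all genes.

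The mesenchymal and fibroblast transcription factors had 233 of 389 day 0 peaks lost (59.9%) and 126 of 284 day 1 peaks gained (44.4%), above the 55.3% and 38.9% of all genes. Among distal peaks the order turned, with 62.8% lost (57.5 to 67.8%) and 48.0% gained (41.8 to 54.4%) against 66.1% and 50.85%. *Runx1* went from 39 peaks to 19 and lost 28, *Zeb2* from 30 to 14 and lost 22, *Nr2f2*, a nuclear receptor gene, from 29 to 14 and lost 20, and *Osr1*, a gene of limb and kidney mesenchyme, from 23 to 9 and lost 16. *Tcf4* lost 20 of 28 peaks and gained 20, so that its number did not change. *Snai1*, which encodes a repressor of *Cdh1*, lost none of its 5 peaks and gained 1. The promoter peaks of *Zeb1*, *Osr1*, *Nr2f2* and *Meox2* were lost.

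The genes of the AP-1 proteins had open promoters on both days, apart from 1. Of 12 such genes, 11 had a promoter peak on day 0 and 12 on day 1, with *Batf3* newly open. Over all peaks nearest to each gene, *Fos* lost 9 of 14 peaks and gained none, *Fosl2* lost 10 of 15 and gained 1, and *Fosb* lost 4 of 9 and gained none. *Jun* lost 6 of 15 and gained 10, ending with 18 peaks. The members thus went different ways, and the list's shares, 52.7% lost and 28.4% gained, lay below those of all genes, 55.3% and 38.9%. Among TGF-beta signalling genes, 54.7% of 278 peaks were lost and 39.5% of 205 were gained, near the values of all genes. Among their distal peaks, however, 59.6% were lost (53.2 to 65.7%), against 66.1% for all genes. *Bmp4* lost 7 of 8 peaks and gained none, while *Tgfbr1* lost none of 3 and gained 3.

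Epithelial genes had few peaks on either day. Of 59 day 0 peaks of the 30 genes 40 were lost (67.8%, against 55.3% for all genes), and of 57 day 1 peaks 36 were gained (63.2%, against 38.9%). Among distal peaks 72.3% (57.4 to 84.4%) of the list's day 0 peaks were lost, with the 66.1% of all genes inside the interval, and 68.8% (53.8 to 81.3%) of its day 1 peaks were gained, against 50.85%. *Ehf*, an epithelial ETS factor gene, had 2 peaks on day 0, both lost, and 6 on day 1, all gained. *Grhl3*, which encodes a grainyhead factor, gained 5 of 6. *Cdh1*, the E-cadherin gene, lost all 4 and gained 3, none of them at its promoter. New promoter peaks appeared at *Cldn3* and *Krt8*, while those of *Elf3*, *Dsp* and *St14* were lost. With all peaks within 50 kb of a gene's TSS counted, the share gained was 38.5% in the epithelial and 41.1% in the pluripotency list, so the shares of both lists depended on how peaks were assigned.

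In the pluripotency list 88 of 130 day 0 peaks were lost (67.7%) and 55 of 96 day 1 peaks were gained (57.3%), against 55.3% and 38.9% for all genes. Among distal peaks 70.4% (61.2 to 78.6%) were lost and 61.45% (50.1 to 71.9%) were gained, and both intervals hold the shares of all genes, 66.1% and 50.85%. Of the 30 genes, 15 had fewer peaks on day 1 and 10 had more. *Klf5* had 6 peaks on day 0 and 11 on day 1, of which 10 were gained, and *Sall1*, which encodes a zinc finger factor, had 5 and 9, of which 6 were gained. *Fgf4* and *Nodal*, both for secreted signals of the early embryo, had no peak on day 0 and 2 on day 1. *Zfp42*, *Gdf3*, *Dppa5a* and *Lin28b* each went from no peak to 1. *Nanog* lost 1 of 4 and gained 2, with no promoter peak on either day, and no peak was nearest to *Sall4*, *Dppa2* or *Nr0b1*. Promoter peaks of *Sox2*, *Sall1*, *Dppa5a* and *Lefty1* were present on day 1 alone, and those of *Pou5f1*, *Esrrb*, *Nr5a2* and *Dppa3* on day 0 alone. Among the genes with fewer peaks, *Klf4* went from 32 to 12, with 22 lost and 2 gained, *Sox2* from 12 to 5, *Nr5a2* from 9 to 3, *Dppa3* from 5 to 1, *Tbx3* from 11 to 8, *Tfcp2l1* from 9 to 7 and *Esrrb* from 6 to 4. Of the 55 gained peaks, 13 were also open in ESCs (23.6%), against 9.67% of all gained peaks. Genes of ribosome biogenesis and other targets of Myc had a promoter peak in 25 of 25 cases on both days.

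The genes of the 4 induced factors differed in their own peaks. The day 0 promoter peak of *Pou5f1* (chr17:35506035-35506595) was lost and was found again on day 9 alone. A peak of 253 bp in *Sox2* (chr3:34650893-34651145) was gained on day 1 and was found in no later library. *Klf4* and *Myc* had a kept peak over a TSS, and *Myc* also lost a peak of 266 bp at a TSS. Reads from exons of these genes that are also part of the cassette cannot be assigned to one or the other copy. At *Col1a1*, whose locus holds the cassette, the 2 narrow peaks beside the TSS were lost (chr11:94935988-94936209 and chr11:94936265-94936489). Peaks at chr11:94936879-94937288 and chr11:94952152-94952452 were gained and were open on days 2, 3, 6 and 9 but not in ESCs.

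Some genes lost each of their day 0 peaks. Among 2035 genes with at least 8 day 0 peaks, the median share lost was 62.5% and 16 genes lost every peak. These included *Tnfrsf11b*, the gene of the osteoclast inhibitor osteoprotegerin, with 11 of 11 lost, *Nrcam*, a neuronal adhesion gene, with 10 of 10, *F13a1*, a coagulation factor gene, with 9 of 9, *Grb14*, an adaptor of the insulin receptor, with 9 of 9, and *Dpt*, the matrix protein dermatopontin, with 8 of 8. *Fam76b* lost 11 of 11, *1700018B08Rik* 9 of 9, and *Cacna1i*, a calcium channel gene, *Dtna* and *Gm19410* 8 of 8 each. These 10 genes had between 1 and 4 peaks on day 1, nearly bound to be gained since no day 0 peak of the gene was kept. *Tnfrsf11b* may serve as an example, since its 3 gained peaks were open on days 2, 3 and 6 and in no case on day 9, while 8 of its 11 lost peaks were not found again.

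Among 1175 genes with at least 8 day 1 peaks the median share gained was 50.0%. *Bcl11a*, a zinc finger repressor gene, had 9 of 9 gained and *Insm1*, a gene of neuroendocrine cells, 8 of 8. *Pcdh15* and *Chl1*, both for adhesion molecules, gained 14 of 15 and 10 of 11, *Akr1d1*, a steroid reductase gene, 11 of 12, and *Klf5* 10 of 11. *Nuak1*, a kinase gene, lost 14 of 15 and gained 9 of 10, *Rapgef5* lost 13 of 14 and gained 9 of 10, *Ryr2*, a calcium release channel gene, lost 8 of 10 and gained 9 of 10, and *Adamts3*, a procollagen protease gene, lost 7 of 8 and gained 7 of 8. At *Nuak1* each of the 9 gained peaks was open on day 3, and 5 were open on days 2, 3, 6 and 9. At *Akr1d1* 4 of the 11 were, and at *Klf5* 1 of the 10. At the other end, *Morn1* lost none of its 8 peaks, *Amotl1*, which encodes a regulator of the YAP pathway, lost 1 of 10, and *Adamtsl4*, *Ahdc1* and *F2rl1* lost 1 of 8 each.

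**Figure D5:**
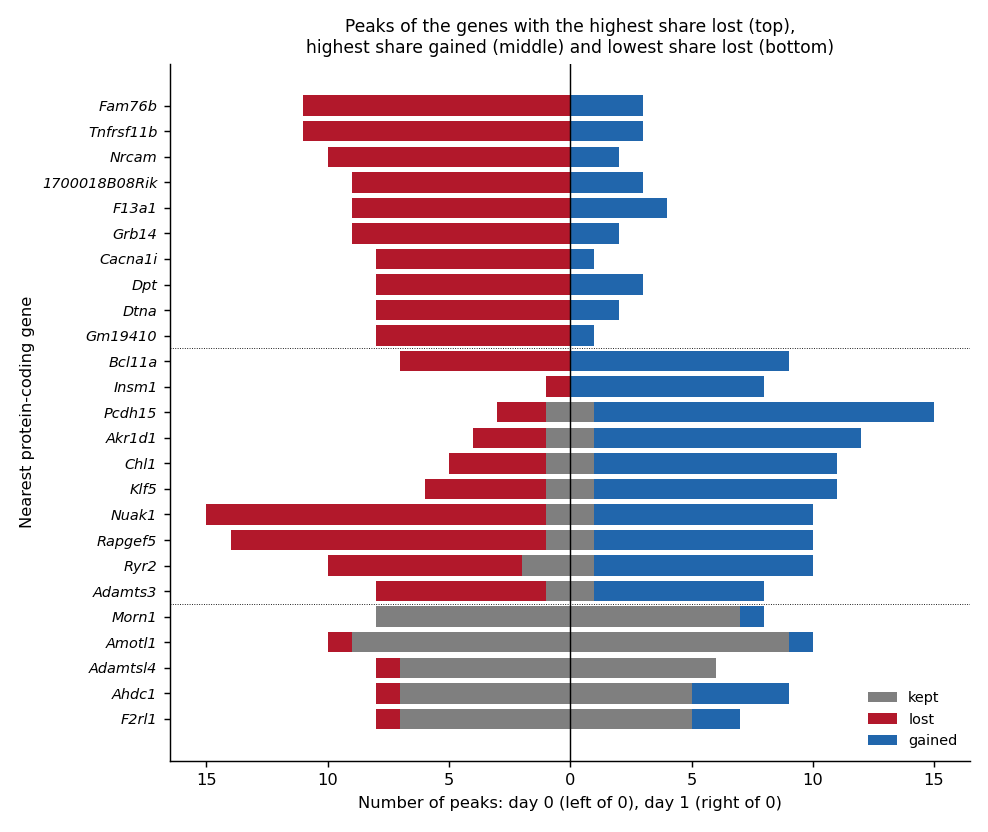
Number of peaks nearest to each named gene on day 0 (left of 0) and on day 1 (right of 0), split into kept (grey), lost (red) and gained (blue). The 10 upper genes lost each of their day 0 peaks, the 10 middle genes have between 87.5% and 100% of their day 1 peaks gained, and the 5 lower genes lost at most 1 peak.

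Some lost peaks followed each other in runs. The longest run of day 0 peaks without a kept one held 29 peaks over 1732 kb of chromosome 15, of which 28 were nearest to *Basp1*, a gene of neurons. A run of 21 peaks over 370 kb of chromosome 9 had 15 peaks nearest to *Ubash3b*. Over all day 0 peaks 55.4% were lost, and among the distal peaks of all genes 66.1%. Whether these runs were longer than scattered loss at such shares would give was not tested. The widest lost peak, 1367 bp at chr16:21318150-21319516, is intergenic near *Vps8* and was found in no later library, and the widest gained peak, 1166 bp at chr15:25753798-25754963 near a TSS of *Myo10*, was open in all later libraries. By chromosome, the share lost lay between 49.7% on chromosome 7 and 58.7% on chromosome 12, and the share gained between 34.2% on chromosome 7 and 42.6% on chromosome 6.

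The first day was set beside the later steps with the same rule. The share lost was 42.5%, 16.7%, 31.6% and 40.2% in the steps that ended at days 2, 3, 6 and 9, respectively, and 59.5% between day 9 and ESCs, but the libraries differed in their number of peaks. With the 27074 widest peaks of each library, 43.1% (42.5 to 43.7%) were lost and 42.7% gained from day 0 to day 1. With this cut, a peak also counted as lost or gained where its counterpart was not among the widest 27074. The 4 later steps among the doxycycline libraries then had 24.1 to 28.5% lost and 23.3 to 27.3% gained, and the step from day 9 to ESCs had 53.6% and 52.3%. The share of OCT motifs in newly open distal peaks was 4.25% on day 1 and 2.28 to 3.27% in the later steps. Distal peaks lost in that first step held OCT motifs in 0.851% of cases, against 2.31 to 3.24% in the later steps. Each step rests on 1 library per side, so its difference from the others was not tested.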

How the data were processed

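ATAC-seq peak lists of 7 libraries, 1 per time-point, were used as deposited. According to the study's methods and the submitters' processing notes, the authors trimmed reads to 50 bp (Trimmomatic), mapped them to mm10 (Bowtie2, SAMtools), removed duplicates and reduced each sample to a common depth (Picard), and called peaks per sample with MACS2. The depth itself is not given in the sources used here. Each deposited list has 3 columns, chromosome, start and end, with no height or score, so the depth behind a peak is unknown and a peak just under the caller's cut-off counts as absent.

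Peaks were compared in Python 3.11.15 with pandas 2.3.3, numpy 2.4.6, scipy 1.17.1 and pysam 0.24.0, with an overlap of at least 1 bp. The numbers of lost and gained peaks were checked against bedtools 2.31.1. Overlaps, nearest transcript starts and the motifs given as single words were tested on simulated data, in 18 steps. Positions were taken 1-based from mm10, and transcript starts from the annotation of the same build. A peak within 1000 bp of a protein-coding TSS was called TSS-proximal, and each peak was assigned to the nearest such gene within 1000 kb. Motifs (19) were searched on both strands in the central 200 bp, as single words in which N is any base. The SRF, CTCF and OCT-SOX motifs were instead searched as looser patterns, which the simulated data did not cover. Named genes needed at least 8 peaks and were those with the 10 highest shares lost, the 10 highest shares gained and the 5 lowest shares lost. Shares have exact (Clopper-Pearson) 95% intervals that cover counting error only. With 1 library per side no test between days was made. The members, gene lists and motifs were chosen with earlier results of these data known. Of the listed genes, 257 of 257 were matched, 2 by an older symbol. Not every listed gene is reported by name here. Alternatives changed the minimum width, the overlap, the number of peaks, the chromosomes, the TSS definition, the motif window and the assignment to genes. No sequence of chromosome 18 is shown.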

Additional observations from a re-analysis of the deposited data

How the results depend on the processing

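The 11 alternative settings, 1 of them (a central 400 bp for motifs) added after the data were seen, gave 210 values. Of these, 87 stayed within their margin and 123 moved beyond it. The margin was the counting interval for shares and a factor of 1.5 either way for median widths. Restricting to chromosomes 1 to 19 and X moved none of 32. The share of day 0 peaks lost was 51.84% with peaks at least 300 bp wide, 69.4% when 50% of both peaks had to overlap, 50.78% when a peak within 500 bp counted as kept, and 46.58% with the widest day 0 peaks, as many as on day 1. The share gained was 37.28%, 59%, 34.74% and 43.99% under these settings, in the same order. The TSS-proximal share was, in that order, 12.72%, 11.83%, 6.814% and 9.139% of lost, 55.54%, 49.68%, 40.54% and 44.97% of kept day 0, and 7.996%, 14.1%, 4.699% and 7.646% of gained peaks. Within 2500 bp of a TSS it was 11.77%, 44.4% and 10.4% of lost, kept and gained peaks, and with transcripts of all gene types 14.31%, 47.68% and 12.24%.

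The share of lost peaks with an AP-1 motif was 33.67% at 300 bp or wider, 20.9% with the 500 bp rule, 26.06% with the widest peaks, 25.58% in whole peaks, 21.11% in distal peaks and 39.11% in the central 400 bp. For kept day 0 peaks it was 18.73% at 300 bp or wider, 17.14% with 50% overlap, 17.86% with the 500 bp rule, 19.9% with the widest peaks, 27.17% in whole peaks, 29.43% in distal peaks and 28.3% in the central 400 bp. For gained peaks it was 19.52% at 300 bp or wider, 13.86% with 50% overlap, 13.53% with the 500 bp rule, 18.36% in whole peaks and 24.47% in the central 400 bp. Lost peaks thus had AP-1 motifs more often than gained ones in each of these settings, whereas kept peaks were above lost ones in whole and in distal peaks only, and fell below gained ones at 300 bp or wider. CTCF motifs were in 3.752% of kept day 0 and 4.371% of lost peaks at 300 bp or wider, the reverse of the order in all peaks, and the share gained in the epithelial list fell to 38.51% with genes within 50 kb, just under the 39% of all day 1 peaks. A day 3 peak was found for 32.11%, 26.75%, 13.62% and 17.18% of lost peaks under the first 4 settings above, and for 77.82%, 61.16% and 57.49% of gained peaks under the first 3. The causes were not tested.

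No paired analysis was possible because there is only 1 library on either side, with no replicate numbers to share. There is no replicate check for any difference between days, and without scores or depths a lost peak cannot be told apart from one that fell just below the caller's cut-off.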

Other observations

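Many narrow day 0 peaks lay beside each other. Of the day 0 peaks, 12.5% had another day 0 peak within 100 bp, with a median gap of 72 bp, and among those under 300 bp the share was 23.8% against 3.69% of the wider ones. On day 1 9.11% of the peaks had such a neighbour, 16.9% of those under 300 bp. The AP-1 motifs of narrow kept distal peaks lay at their edges as they did in lost ones, with a density of 7.93 per 1000 peaks per 20 bp within 50 bp of the centre and 31.3 at 100 to 200 bp. In narrow gained distal peaks the densities were 9.66 and 16.6. CTCF motifs were in 9.65% of the narrow lost, 15.7% of the narrow kept day 0 and 7.79% of the narrow gained distal peaks when the central 400 bp were searched. How the caller's settings bear on these pairs was not tested.

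Both directions of change met at the same genes. Of 21842 protein-coding genes, 6263 had a lost and a gained peak, 4652 had lost peaks alone and 1723 gained peaks alone. *Cdh5*, an endothelial cadherin gene, lost 13 peaks and gained 9, of which 7 were found in no later library. A run of 11 gained peaks without a kept one lay within 148 kb of chromosome 4 nearest to *Vps13d*, a gene for a lipid transfer protein. Over all day 1 peaks 39.0% were gained, and the length of this run was not tested against that share. Of the 36 gained peaks of the epithelial list 19 (52.8%) were open on day 9 and 3 (8.33%) in ESCs, whereas of the 55 of the pluripotency list 18 (32.7%) and 13 (23.6%) were. These genes and runs were picked after their values were seen.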
